A study of Mus musculus with 4 samples.

Results

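Netrins are secreted guidance proteins, and the 9 genes described here encode 3 of them (*Ntn1*, *Ntn3*, *Ntn4*) and 6 receptors (*Unc5a*, *Unc5b*, *Unc5c*, *Unc5d*, *Dcc*, *Neo1*). They were taken by gene symbol from a table of 24391 genes, and all 9 were in it. *Unc5a* was chosen by its measured counts, which differed between the genotypes, so that difference is described here and not tested. The other members came in as its paralogues, co-receptors and ligands. The table holds 4 RNA-seq libraries of whole mouse pancreas at E18.5, of mixed strain with C57BL/6. The 2 Rest pKO (mutant) libraries come from *Pdx1*-Cre embryos with both *Rest* alleles floxed, and the 2 control libraries from embryos with *Pdx1*-Cre and wild-type *Rest*. Cre under *Pdx1* removes exon 4 of *Rest* in the pancreatic epithelium and is not expected to act in its mesenchyme. REST (RE1-silencing transcription factor) represses neuronal genes outside the nervous system, and the comparison asks how their expression and that of other genes shifts in the embryonic pancreas when epithelial cells lose it.

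Netrin-1 attracts growing axons through DCC and its relative neogenin (NEO1), and repels them through UNC5 receptors, alone or together with DCC. UNC5 receptors and DCC are also called dependence receptors, since they can trigger cell death when no netrin is bound. Outside the nervous system netrins and their receptors act in epithelial branching and cell adhesion, including in the pancreas, and UNC5B is a receptor of blood vessels.

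Counts summed to between 16936759 and 24134100 per library. *Rest* measured 14.2 and 15.7 CPM (counts scaled to the TMM-adjusted library size) in the controls, against 12.1 and 9.16 CPM in the mutants (log2 fold change −0.49, adjusted p = 0.593, edgeR). These counts cover every exon, not exon 4 alone, and every cell type present. Paired values are given in the order of replicates 1 and 2 unless a sum or range is stated. Each genotype held 1 library with high *Xist* and 1 with counts from Y-linked genes, so 1 library of each was read as female and 1 as male. Whether a library comes from a single embryo or a pool is not stated. Markers of the labelled tissue were abundant, with 8 acinar genes summing to between 156982 and 231670 CPM. In whole-organ RNA, fewer cells of a type and less RNA per cell cannot be told apart.

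The element that REST binds, RE1, is a 21-base sequence, and its letters were searched in the mm9 genome within 5 kb of the annotated start of each gene. The canonical RE1 consensus was used, both strands were read, and mismatches were counted over its 19 defined bases. *Unc5a* had a match with 3 mismatches, at −3878 bases from its start and between annotated genes (chr13:55046884-55046904, minus strand). Of 22022 protein-coding genes, 1.3% had as close a match in this window. *Unc5b* (chr10:60293888-60293908) and *Unc5d* (chr8:30325385-30325405) had no match closer than 6 mismatches, and *Unc5c* (chr3:141128768-141128788) none closer than 7. As few as 6 mismatches were found near 80.11% of genes and as few as 7 near 99.72%. For orientation 4 further genes were looked up, chosen after their values were seen. *Chga* (chr12:103793448-103793468) and *Snap25* (chr2:136540074-136540094) had matches with 1 and 2 mismatches, *Bex2* one with 2, and *Disp2* none closer than 6. The best matches of the UNC5 genes and of *Chga* and *Snap25* are shown 5′ to 3′ on the strand of the motif, so that the *Unc5a* match can be read against its paralogues. Capitals mark bases equal to the motif, and for *Unc5a* 20 flanking bases are given on each side.
Unc5a: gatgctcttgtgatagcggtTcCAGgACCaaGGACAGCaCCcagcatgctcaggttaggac
Unc5b: cTCcGCACCccGctCcGgGCC
Unc5c: cTaAGCgCCagtGgCAcCGgC
Unc5d: TcCAGgtCCagtGAgAGaGCC
Chga: TTCAGCACCtcGGACAGCaCC
Snap25: TTCAGCACCgcGGACAGCGat

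Closer matches lay farther inside the longer paralogues. Within the gene and 5 kb on each side, *Unc5d* held matches with 2 and 3 mismatches in introns, 201912 and 458733 bases from its start. *Unc5c* held an intronic match with 3 mismatches 346022 bases from its start. Neither *Unc5b* nor any of the 5 members outside the *Unc5* genes had a match with 3 or fewer mismatches. The longest stretch read was that of *Dcc*, 1102 kb. For the *Unc5* genes 582.6 kb were read for *Unc5d*, 379.4 kb for *Unc5c*, 78.97 kb for *Unc5b* and 66.61 kb for *Unc5a*. The windows around all gene starts held 1 match with 3 or fewer mismatches per 724.5 kb. These intronic matches are shown because they are nearer to the motif than any match at the starts of the same genes.
Unc5c intron (chr3:141474540-141474560): aTCAGCACCaaGGACAGaGCa
Unc5d intron (chr8:30127888-30127908): TTCAGCACCctGGACAGCaCa
Unc5d second intronic match (chr8:29871067-29871087): aTCAGCACCgtGGACAGaGgC

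A match is a likeness of letters and does not show binding. The authors mapped REST binding by ChIP-seq in wild-type pancreas of an earlier embryonic stage. The matches given here were not compared with those bound regions. The 7-letter part GGACAGC, on either strand, was absent from the RefSeq promoters (GRCm38.p6, from 250 bases before to 50 after the start) of the 6 members found in that table, *Unc5a*, *Unc5b*, *Unc5c*, *Neo1*, *Ntn3* and *Ntn4*. It stands in 6.56% of all 32851 promoters there.

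**Figure D1:**
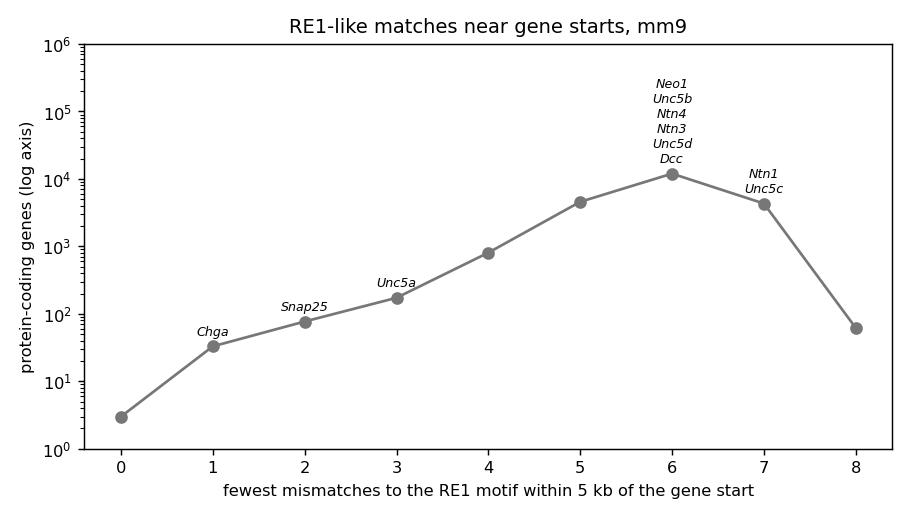
Fewest mismatches to the RE1 motif within 5 kb of the gene start (x axis) against the number of protein-coding genes (y axis, log scale), with the 9 members and *Chga* and *Snap25* written at their value. *Unc5a* stands at 3 mismatches and the 8 other members at 6 or 7.

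*Unc5a*, a receptor that binds netrins through its extracellular domains and carries a death domain inside the cell, was lower in both Rest pKO libraries. It was counted 149 and 172 times in control replicates 1 and 2 and 52 and 39 times in Rest pKO replicates 1 and 2. On the CPM scale these are 8.87 and 8.67 against 2.41 and 1.78. The controls lay close together, and the highest Rest pKO library was far below the lowest control. Means were 8.77 ± 0.138 CPM and 2.09 ± 0.449 CPM (SD, n = 2 each), a ratio of 4.19 of control to Rest pKO. The fitted log2 fold change, Rest pKO over control, was −2.06 (standard error 0.29). Between the female libraries the difference was −2.04 and between the male libraries −1.66, on the log2(CPM + 0.5) scale. *Unc5a* lies on chromosome 13 from 55050772 to 55107379 (mm9), on the plus strand, with 16 exon blocks. Its exons share 34 of 4168 bases with *Hk3*, a hexokinase gene on the opposite strand, looked at for this overlap. *Hk3* measured 2.56 and 4.89 CPM in control libraries, against 2.69 and 4.65 CPM in mutants, so the genotypes overlapped there.

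The 3 paralogues of *Unc5a* did not share this pattern. *Unc5b*, the vascular UNC5 receptor, measured 13.0 and 20.9 CPM in control libraries, against 17.0 and 23.1 CPM in mutants. Its libraries overlapped between genotypes, and the log2 fold change was 0.24, with a 95% interval from −0.40 to 0.88 (adjusted p = 0.782, edgeR). *Unc5c* measured 16.8 and 13.0 CPM in control libraries, against 13.7 and 9.25 CPM in mutants. These ranges overlapped too, with a log2 fold change of −0.38 and an interval from −0.99 to 0.24 (adjusted p = 0.678, edgeR). *Unc5d*, the least abundant of them, was counted 13 and 40 times in controls and 44 and 45 times in Rest pKO, or 0.774, 2.02, 2.04 and 2.05 CPM. Control replicate 1 alone was low, and control replicate 2 lay just below the Rest pKO libraries. The log2 fold change of *Unc5d* was 0.53 (interval −0.64 to 1.70, adjusted p = 0.739, edgeR), and it was 0.01 without control replicate 1 and 1.39 without control replicate 2. The intervals of *Unc5b*, *Unc5c* and *Unc5d* stop short of a difference of the size fitted for *Unc5a*. *Unc5a* was chosen by its difference in these same libraries, so nothing is concluded from this. No difference between *Unc5a* and a paralogue was tested.

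*Neo1*, which encodes neogenin, a receptor for netrins and for repulsive guidance molecules, was the most abundant receptor. It measured 106.3 and 94.0 CPM in control libraries, against 74.0 and 87.1 CPM in mutants, where both libraries lay below both controls. The log2 fold change was −0.31 (interval −0.74 to 0.11), which did not pass (adjusted p = 0.643, edgeR). *Dcc*, the classical netrin receptor of commissural axons, was at the edge of detection. It had 4 and 2 counts in controls and 1 and 7 in Rest pKO, did not pass the filter on low counts, and allows no comparison at this depth.

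Among the ligands, *Ntn1*, the best-known netrin, was nearly level across the 4 libraries. It measured 75.6 and 78.3 CPM in control libraries, against 80.0 and 78.4 CPM in mutants. The mutant values exceeded the controls by a small margin, and the log2 fold change was 0.04 (interval −0.34 to 0.43, adjusted p = 0.937, edgeR). *Ntn4*, a netrin of basement membranes, measured 7.74 and 5.25 CPM in control libraries, against 5.93 and 4.60 CPM in mutants. The genotypes overlapped, with a log2 fold change of −0.30 (interval −1.01 to 0.42, adjusted p = 0.758, edgeR). *Ntn3* measured 2.20 and 3.58 CPM in control libraries, against 1.81 and 2.19 CPM in mutants. The higher mutant library lay just under the lower control, and the log2 fold change was −0.54 (interval −1.44 to 0.36, adjusted p = 0.685, edgeR). *Ntn3* shares 89 exon bases with *Tbc1d24* and 139 with *BC028777*, of 4894, so some of its few counts cannot be assigned with certainty.

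**Figure D2:**
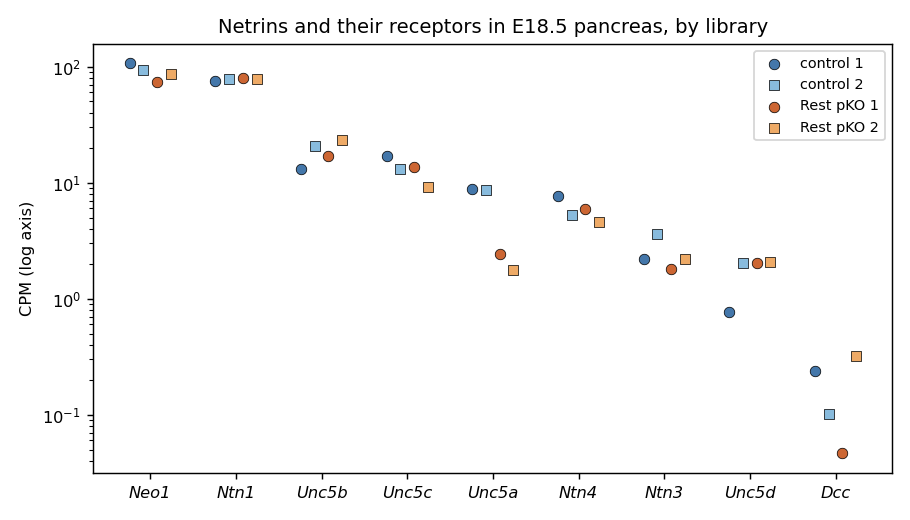
CPM (y axis, log scale) of the 9 members in each library, blue for controls and orange for Rest pKO, with circles for replicate 1 and squares for replicate 2. *Unc5a* is the member whose Rest pKO points, at 2.41 and 1.78 CPM, stand well clear of its control points at 8.87 and 8.67 CPM.

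Over all 14550 genes tested, edgeR called 4 genes lower in Rest pKO (0.0275% of genes) and none higher. Unadjusted p was under 0.05 for 816 genes lower (5.61%) and 474 higher (3.26%), and DESeq2 called 76 lower and 26 higher (0.533% and 0.182% of 14250 genes). Of the 7 tested members other than *Unc5a*, 0 passed in edgeR or DESeq2, and 0 had an unadjusted p under 0.05, beside 8.87% of all genes (1290 of 14550). In 2 of these 7 the mutant values were both under the lower control and in 2 both over the higher control, beside 21.2% and 21.5% of all genes. The median log2 fold change of the 7 was −0.30, and that of all genes tested was −0.005. Of the 7, 4 had a log2 fold change below 0, beside 50.5% of all genes. A log2 fold change of −1 or less was fitted for 428 genes (2.94%) and one of 1 or more for 1.36%, and none of the 7 reached either.

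**Figure D3:**
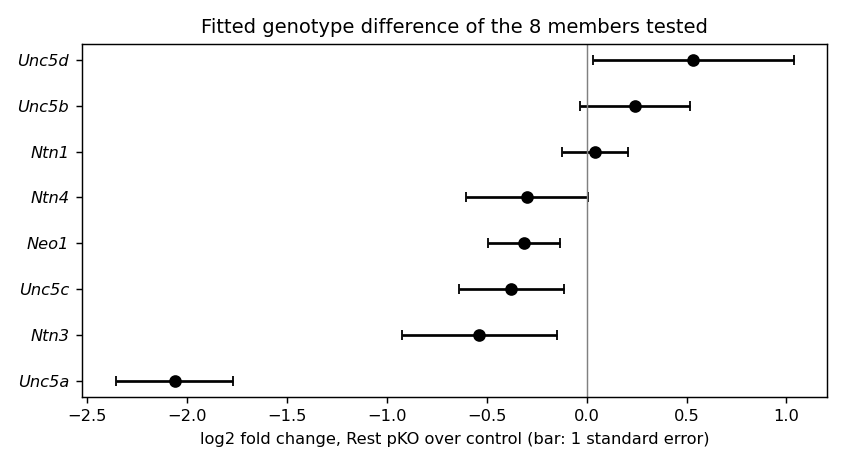
Fitted log2 fold change, Rest pKO over control (x axis), of the 8 members tested (y axis), with bars of 1 standard error. *Unc5a* stands at −2.06, and the 7 others lie between −0.54 and 0.53.

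Levels of different genes were compared per kb of exon (CPM divided by the exon length in the GENCODE M1 annotation of mm9). The authors counted reads on UCSC gene annotations of mm9, so counts and lengths come from different gene models. In the controls *Neo1* led with 13.6 ± 1.18 CPM per kb, followed by *Ntn1* with 12.3 ± 0.301. *Unc5b* (2.89 ± 0.955), *Unc5a* (2.10 ± 0.0331) and *Ntn4* (1.74 ± 0.471 CPM per kb) came next, and neighbours among these means differed by less than the larger of their SDs. *Unc5c* was at 1.22 ± 0.219, *Ntn3* at 0.591 ± 0.199, *Unc5d* at 0.156 ± 0.0983 and *Dcc* at 0.0210 ± 0.0120 CPM per kb (SD, n = 2 for each value). In Rest pKO the order began with *Ntn1* (12.6 ± 0.179) and *Neo1* (10.9 ± 1.26), followed by *Unc5b* (3.42 ± 0.740), *Ntn4* (1.41 ± 0.252) and *Unc5c* (0.942 ± 0.258 CPM per kb). *Unc5a* came after them at 0.502 ± 0.108, and its mean differed by less than the larger SD from that of *Ntn3* (0.408 ± 0.0546 CPM per kb). *Unc5a* thus stood at rank 4 of 9 in the controls and at rank 6 in Rest pKO, while *Unc5d* and *Dcc* were the lowest in both.

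The make-up of the UNC5 level is given as a description. *Unc5a* was chosen by these counts, so its lower share, and its lower rank above, follow from that choice. As parts of a whole, the shares of its paralogues are larger where that of *Unc5a* is smaller, whatever their own levels. Of the summed level of the 4 UNC5 genes per kb of exon, *Unc5a* took 36.6% and 30.0% in control libraries, against 12.0% and 7.95% in mutant libraries. *Unc5b* took 38.2% and 51.4% in the controls, close to *Unc5a* in control replicate 1 and well above it in control replicate 2. In Rest pKO *Unc5b* took 60.0% and 73.6%, *Unc5c* 23.3% and 14.2%, and *Unc5d* 4.72% and 4.27%. Without division by length, *Unc5a* had 22.5% of the UNC5 counts in control replicate 1 (95% Wilson interval 19.5% to 25.8%) and 19.5% in control replicate 2 (17.0% to 22.2%). It had 6.87% in Rest pKO replicate 1 (5.28% to 8.90%) and 4.91% in replicate 2 (3.61% to 6.64%). These intervals cover counting error within a library only, and do not test the difference between genotypes. The summed UNC5 level was 5.81 and 6.94 CPM per kb in controls and 4.83 and 5.36 in Rest pKO.

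**Figure D4:**
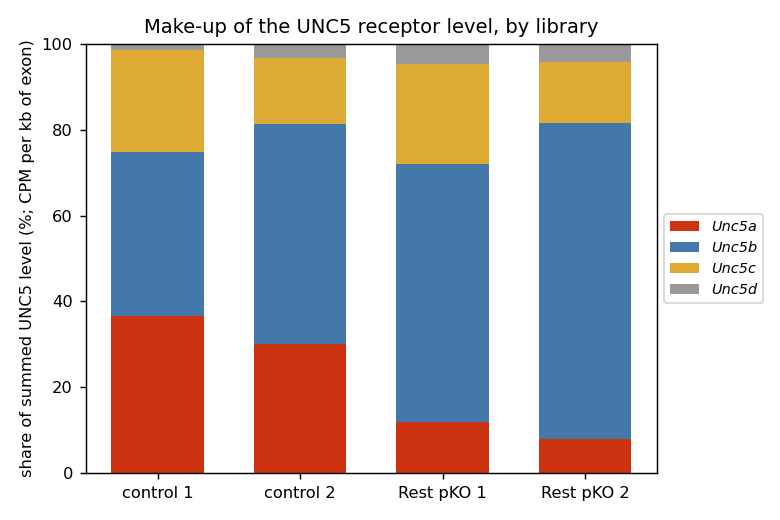
Share of the summed UNC5 level, in CPM per kb of exon, taken by each of the 4 UNC5 genes (y axis, percent) in each library (x axis). The share of *Unc5a* falls from 36.6% and 30.0% in control libraries to 12.0% and 7.95% in mutant ones.

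The genes whose values ran most like those of *Unc5a* across the 4 libraries were *Zfp874a*, *Ccr2*, *St8sia1*, *Nbeal1* and *Clec7a*. Likeness was measured as the distance between log2(CPM + 0.5) values centred on each gene's mean, from 0.387 for *Zfp874a* to 0.529 for *Clec7a*. *Zfp874a*, a zinc finger gene, measured 10.5 and 9.48 CPM in control libraries, against 4.03 and 2.41 CPM in mutants, and it also lies on chromosome 13, from 67527195 to 67552560. *Ccr2*, a chemokine receptor of monocytes, measured 6.25 and 8.73 CPM, against 2.46 and 1.82 CPM. *Clec7a*, the beta-glucan receptor of myeloid cells, measured 1.67 and 2.37 CPM in control libraries, against 0.603 and 0.273 CPM in mutants. *St8sia1*, a ganglioside sialyltransferase, measured 9.47 and 8.32 CPM, against 1.99 and 2.60 CPM. With 4 libraries such a likeness is a description of these samples.

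Markers of cell types were read in the same libraries. All 7 macrophage and leukocyte markers tested had a log2 fold change below 0 (median −0.29), beside 50.5% of all genes, and their sum was 182 and 185 CPM in controls and 102 and 169 CPM in Rest pKO. Among them *Itgam*, an integrin of myeloid cells, measured 17.3 and 20.1 CPM in control libraries, against 3.89 and 7.15 CPM in mutants (log2 fold change −1.76). *Ptprc*, which encodes the leukocyte protein CD45, measured 14.9 and 22.2 CPM, against 5.42 and 7.29 CPM (−1.55). The other 5 lay between −0.68 and −0.11, and in 4 of them the genotypes overlapped. *Csf1r*, *Adgre1* and *Fcgr3* were higher in Rest pKO replicate 2 than in either control. *Csf1r* measured 62.3 and 56.3 CPM in control libraries, against 39.5 and 69.1 CPM in mutants. The 8 mesenchymal markers summed to 7748 and 8675 CPM in controls and to 4592 and 7205 CPM in Rest pKO, and 7 of 8 were below 0 (median −0.43). All 5 mesothelial markers were below 0 (median −0.64), with sums of 350 and 434 CPM against 192 and 303. One of them, *Krt19*, is also on the duct list. It measured 130.2 and 94.3 CPM in control libraries, against 64.8 and 104.5 CPM in mutants. All 4 erythroid markers tested were below 0, with sums of 32.3 and 132.7 CPM against 21.9 and 22.1, while *Hba-a1* and *Hbb-b1* are listed at 0 in every library. Duct markers summed to 874 and 1042 CPM in controls and to 967 and 1158 CPM in Rest pKO, with a median log2 fold change of −0.02 over 7 genes. Acinar markers were above 0 in 7 of 8 (median 0.17). Neuron and Schwann cell markers were higher on average, all 7 tested being above 0 (median 0.85), with sums of 16.04 and 18.6 CPM in controls and 30.6 and 31.1 CPM in Rest pKO. All 8 endocrine markers were above 0 (median 0.97), with sums of 1890 and 2805 against 4188 and 6098 CPM. No marker on these lists was called by edgeR, while DESeq2 called 4 endocrine (*Ins1*, *Ins2*, *Chga*, *Chgb*), 2 mesothelial (*Lrrn4*, *Wt1*) and 2 macrophage and leukocyte markers (*Itgam*, *Ptprc*). Their part in the values of *Unc5a* was not tested. Across 13312 genes with an mm9 position, log2 fold changes also fell with exon length (Spearman correlation −0.296, across genes, which are not replicates).

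Endothelial markers stood beside *Unc5b* in the same libraries. Their 8 genes summed to 409 and 522 CPM in control replicates 1 and 2 and to 584 and 602 CPM in Rest pKO replicates 1 and 2, with 7 of 8 log2 fold changes above 0 (median 0.31). *Unc5b* had its lowest value in control replicate 1 and its highest in Rest pKO replicate 2, as this sum did, while the other pair of libraries stood in the opposite order. *Robo4*, a guidance receptor of blood vessels, measured 21.3 and 28.0 CPM in control libraries, against 37.9 and 53.4 CPM in mutants (log2 fold change 0.89, adjusted p = 0.424, edgeR). *Mcam*, which encodes CD146, a cell adhesion protein of vessels that has been reported to bind netrin-1, measured 50.2 and 68.0 CPM, against 72.5 and 95.1 CPM (log2 fold change 0.50, adjusted p = 0.574, edgeR). Both were higher in each Rest pKO library than in either control, and neither passed. Whether the endothelial signal plays a part in the values of *Unc5b* was not tested.

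Genes listed as other ligands of the same receptors lay lower in Rest pKO more often than not. Of 6 tested, 5 had each mutant value under both control values and *Rgmb* had each over them, beside 21.2% and 21.5% of all genes. Their median log2 fold change was −0.70. *Gdf15* is among the 5 but is not an established ligand of these receptors. It measured 0.595 and 1.16 CPM in control libraries, against 0.556 and 0.456 CPM in mutants (log2 fold change −0.80). The FLRT proteins are cell surface ligands of UNC5 receptors. *Flrt2* measured 89.4 and 71.6 CPM in control libraries, against 54.3 and 40.9 CPM in mutants (log2 fold change −0.76, standard error 0.21, adjusted p = 0.433, edgeR). *Flrt3* was at 7.62 and 8.37 CPM against 5.19 and 5.10 (log2 fold change −0.64, adjusted p = 0.528, edgeR). *Flrt1* was at 3.87 and 2.98 CPM against 2.13 and 1.46 (log2 fold change −0.93, adjusted p = 0.540, edgeR). None of these was called. *Rgma*, a ligand of neogenin, had a log2 fold change of −0.31. The mesenchymal and mesothelial markers given above were also lower in these libraries, and their part in the FLRT values was not tested.

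Further relatives of the netrins were scarce. Of *Ntng1*, *Ntng2*, *Ntn5* and the netrin-G ligands *Lrrc4*, *Lrrc4b* and *Lrrc4c*, 3 passed the filter on low counts, and all 3 had a log2 fold change below 0 (median −0.35). *Ntng2*, a membrane-anchored netrin, had 18 and 27 counts in controls and 5 and 9 in the mutants, a log2 fold change of −1.90 (standard error 0.55, edgeR adjusted p = 0.433). The ranges of *Ntng2* did not overlap, but the counts behind it are few. Of 6 other receptors tested, among them the integrin genes *Itga3*, *Itga6*, *Itgb1* and *Itgb4*, 3 were above and 3 below 0 (median −0.03), and none was called.

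Inside the cell, genes of the netrin pathway went both ways. Of 24 genes for kinases, adaptors, GTPases and actin regulators, 12 had a log2 fold change above 0 and 12 below (median −0.005), with a range from −0.54 to 0.21, and none was called. *Trio*, a guanine nucleotide exchange factor downstream of DCC, measured 84.9 and 101.2 CPM in control libraries, against 58.8 and 69.9 CPM in mutants (log2 fold change −0.53, adjusted p = 0.495, edgeR). The mutant values of *Trio* were both under the lower control. The other members of this list with the smallest p, *Wasl*, *Enah* and *Fyn*, had log2 fold changes of −0.54, −0.28 and 0.18. Among 5 partners in dependence receptor signalling, *Dapk1*, a death-associated kinase that binds UNC5 receptors, measured 47.8 and 43.3 CPM in control libraries, against 53.1 and 50.4 CPM in mutants. *Maged1*, an UNC5A-binding protein also called NRAGE, was at 313 and 303 CPM against 342 and 390. Both were higher in each Rest pKO library, at 0.18 and 0.25 on the log2 scale (edgeR adjusted p = 0.738 and 0.695). *Appl1*, an adaptor that binds DCC, measured 54.4 and 53.4 CPM in control libraries, against 46.9 and 27.0 CPM in mutants (log2 fold change −0.55, adjusted p = 0.606, edgeR). Over all 44 tested genes of these 5 lists, *Gdf15* among them, 25 were below and 19 above 0 (median −0.06), and 0 were called. Of the 44, 5 had an unadjusted p under 0.05 (edgeR), all lower, beside 5.61% of all genes lower at that p.

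Other guidance families were read in the same way. Of 13 class 3 semaphorins, neuropilins and class A plexins, 10 had a log2 fold change below 0 (median −0.21), beside 50.5% of all genes. In 6 the mutants did not reach the lower control and in 0 they both exceeded the higher one, beside 21.2% and 21.5% of all genes. *Sema3d*, a secreted repellent, measured 74.6 and 71.6 CPM in control libraries, against 42.7 and 30.8 CPM in mutants (log2 fold change −0.99). Its adjusted p was 0.357 in edgeR and 0.0167 in DESeq2. *Sema3a* (−0.87), *Sema3c* (−0.63) and the receptor *Plxna4* (−0.87) were lower in the same way, and edgeR called none of them. Of 6 SLIT and ROBO genes, 4 were below 0 (median −0.10). *Slit3*, a ligand of ROBO receptors, measured 63.4 and 55.2 CPM in control libraries, against 35.5 and 40.1 CPM in mutants (log2 fold change −0.65, adjusted p = 0.424, edgeR).

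**Figure D5:**
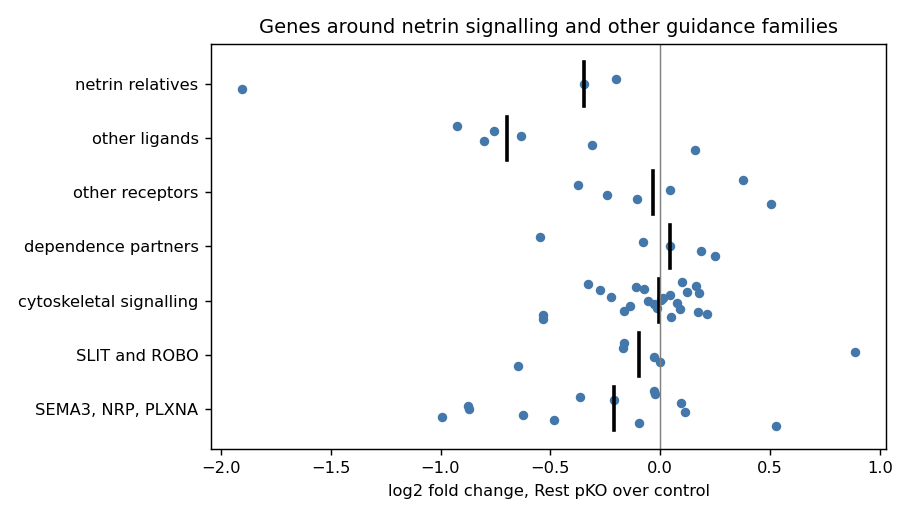
Log2 fold change, Rest pKO over control (x axis), of the tested genes in 7 lists (y axis), with each point 1 gene and the bar the median of the list. Medians run from −0.70 for genes listed as other ligands, *Gdf15* included, to 0.04 for dependence partners. The leftmost point is *Ntng2* at −1.90.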

How the data were processed

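Counts, as deposited, are unnormalized whole numbers, 1 row to a gene symbol. According to the methods and the submitters' processing notes, the authors aligned paired-end reads of DNase-treated RNA to mm9 with STAR, kept uniquely mapped reads and made the counts with featureCounts 1.5. Strand setting and whether pairs were counted are not given in the sources used here, nor which of the pancreas described these libraries are. Counts were tested with edgeR 4.0.16 in R 4.3.3 (filterByExpr, TMM, glmQLFit, glmQLFTest) with genotype as the only term, adjusted by Benjamini-Hochberg over 14550 genes at 0.05. Intervals use the fit's standard error and its degrees of freedom, 2 residual and 5.477 prior. The prior part comes from the spread of all genes tested, so the intervals do not rest on the 2 libraries a genotype alone. Alternatives were DESeq2 1.42.0, limma-voom (limma 3.58.1), other scalings and filters, a replicate block, sex as a term and leaving out each library. Replicates differed by more than sampling noise (chi-square per degree of freedom 23.23 and 64.92). Exon lengths and sites come from GENCODE M1 and NCBIM37 (mm9), and promoters from RefSeq. The edgeR step was tested on simulated data. Named genes were the members, *Rest*, up to 4 genes of smallest p in each list, and the 5 genes nearest to *Unc5a*, of which not all are printed. Members, lists and alternatives were chosen with earlier results of these data known, and the RE1 search was added after the values were seen.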

Additional observations from a re-analysis of the deposited data

Results flagged for a closer look

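In *Unc5b*, *Unc5c* and *Ntn4* the genotype difference ran in opposite directions in the 2 sexes, as read from *Xist* and Y-linked counts. With 1 library per sex and genotype, sex cannot be told apart from the spread between libraries. The share of all genes with opposite directions was not counted, so nothing is concluded about these members. The SD between libraries of a genotype was 0.40 for *Unc5b*, 0.32 for *Unc5c* and 0.31 for *Ntn4*, on the log2(CPM + 0.5) scale. These differences between the sexes were not tested. *Unc5b* was higher in Rest pKO between the female libraries (0.81 on the log2(CPM + 0.5) scale) and lower between the male libraries (−0.29), a difference of 1.10. *Unc5c* was lower between the female libraries (−0.83) and near level between the male libraries (0.07), a difference of −0.90. *Ntn4* was lower between the female libraries (−0.69) and higher between the male libraries (0.16), a difference of −0.86. *Dcc*, which was not tested for its low counts, was at 0.15 between the female and −0.14 between the male libraries.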

How the results depend on the processing

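With genotype as the only term, 2 residual degrees of freedom remained, and fewer did with a block, with sex as a term or without a library. *Dcc*, *Unc5d* and *Ntn3* are limited by their counts. None of the members other than *Unc5a* passed under any of the 12 alternatives. Whether *Unc5a* passed differed between the fits, and nothing is read from it, since the gene was chosen by these counts. The log2 fold change of *Unc5a* stayed below 0 in all 12 and ranged from −2.30 without Rest pKO replicate 1 to −1.86 without Rest pKO replicate 2. Leaving out control replicate 1 turned the direction of *Unc5b* (−0.0661) and of *Ntn4* (0.00244), whose libraries overlap between genotypes, and without control replicate 2 these log2 fold changes were 0.625 and −0.556. Leaving out 1 library also moved *Unc5c* between −0.68 and −0.12, *Ntn3* between −0.85 and −0.14, *Neo1* between −0.43 and −0.20 and *Ntn1* between 0.01 and 0.07, with no change of direction. The extremes came without Rest pKO replicates 1 and 2 for *Unc5c* and *Neo1*, in opposite orders, and without control replicates 1 and 2 for *Ntn3* and *Ntn1*. The 4 genes called lower and 0 higher became 76 and 26 with DESeq2 and 187 and 60 with sex as a term. Leaving out 1 library gave from 0 to 455 lower and from 1 to 59 higher, the lowest counts without Rest pKO replicate 2 and the highest without Rest pKO replicate 1. The replicate block left 4 lower and 0 higher and gave *Unc5a* −2.08. Deviations of same-numbered libraries correlated at 0.0652 over genes, and the numbers were not taken to pair them. The mean share of *Unc5a* in the UNC5 level was 33.3% in controls and 9.96% in Rest pKO per kb of exon, and 20.98% and 5.89% without division by length.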
